A study of Mus musculus with 10 samples.

Results

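The 10 genes described here are early response transcription factors (Egr1, Egr2, Egr3 and Nr4a1) and the dual-specificity phosphatases Dusp1, Dusp2, Dusp4, Dusp5, Dusp6 and Dusp10. They were chosen by symbol, and the platform annotation assigned 13 probe sets to them, among 34945 probe sets that name 1 of 18193 genes. They were compared between 5 samples of Irf4-/- mice and 5 samples of Irf4+/+ littermates, all C57BL/6 and 12 weeks old. Spleen cells were depleted magnetically of non-B cells and all 10 samples were then stimulated in culture with anti-CD40 antibody plus 20 ng/ml IL-4 for 3 days. RNA was measured on 1-colour Affymetrix 3′ expression arrays, 1 array per sample. The labels do not say which part of Irf4 is disrupted, nor whether samples within a genotype are separate mice, cultures or repeats of one pool. The p-values therefore rest on the spread among the 5 samples, and that spread may be technical in part.

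Early response genes are switched on directly by signalling from surface receptors, largely through MAP kinases and calcium. Egr1, Egr2 and Egr3 encode zinc finger transcription factors, and Nr4a1 encodes an orphan nuclear receptor widely used as a readout of antigen receptor signalling in lymphocytes. Dual-specificity phosphatases remove the activating phosphates from MAP kinases and so limit the same pathways, and many of their genes are themselves induced by MAP kinase activity. Members of the family differ in place and target: Dusp1, Dusp2, Dusp4 and Dusp5 are nuclear, Dusp6 acts on ERK in the cytoplasm, and Dusp10 acts on p38 and JNK. Irf4 is a transcription factor that B cells induce on activation.

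The arrays of each genotype resembled each other closely. Arrays of 1 genotype correlated at a Pearson's r of 0.973 to 0.982 over the tested probe sets, and arrays of different genotypes at 0.936 to 0.945, and array medians lay between 39.9 and 45 signal units in Irf4-/- samples and between 37.2 and 42.7 in Irf4+/+ samples. Irf4 transcript itself was still measured (mean ± SD of 5 samples each). Its brightest probe set read 2792 ± 128 in Irf4-/- samples and 3761 ± 211 in Irf4+/+ samples. A dimmer Irf4 probe set read 325 ± 91.4 in Irf4-/- and 426 ± 79.0 in Irf4+/+ samples, and there the groups overlapped. The labels do not place either probe set relative to the disrupted part. Counts of markers called higher stand here beside 23.4% of all tested genes. All 9 measured B cell markers were present and were higher in Irf4-/- samples. Their summed signal was 45942.6 to 51167.7 in Irf4-/- samples and 23473.1 to 27173.3 in Irf4+/+ samples. Natural killer markers were also higher (12 of 12 tested, summed signal 11839.6 to 16333.4 in Irf4-/- samples and 1402.1 to 1644.9 in Irf4+/+ samples), most of that sum coming from Gzma and Gzmb. Macrophage markers were higher for 6 of 8 tested (summed signal 2108.6 to 2646.8 in Irf4-/- and 531.2 to 629.0 in Irf4+/+ samples, led by Adgre1 and Mpeg1), with C1qa, C1qb, C1qc, Cd14 and Marco below the filter on dim signals, which is on the mean of all 10 arrays. Granulocyte markers were higher for 2 of 4 tested, S100a8 and S100a9 (summed signal 467.9 to 792.8 in Irf4-/- and 107.0 to 190.5 in Irf4+/+ samples). The T cell markers Cd3d, Cd3e, Cd3g and Cd4 were below the filter. Some other markers passed it, at a mean of at least 25.1, only through Irf4-/- samples. Their count as higher was therefore partly set by the filter. Of natural killer markers these were Klrd1, Nkg7, Ncr1, Klre1, Fasl and Tbx21 (Irf4+/+ means 9.70 to 24.0). Of macrophage and granulocyte markers they were Chil3, Lyz1, S100a8 and S100a9 (Irf4+/+ means 4.66 to 18.3). The summed signals include genes below the filter. The signal of the 18S ribosomal RNA controls was 3.48-fold higher in Irf4-/- samples (exact permutation test, p = 0.00794, or 0.0317 adjusted for the 4 measures compared). Irf4-/- samples had an Actb ratio of 3′ to 5′ signal of 1.10 ± 0.0227, against 1.15 ± 0.0259 in Irf4+/+ samples (exact permutation test, p = 0.0238, adjusted 0.0476). The part of these cells and of RNA quality in the results below was not tested, and in bulk samples fewer cells of a type and less RNA per cell cannot be told apart.

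In Irf4-/- samples Dusp10, Dusp6, Egr3 and Dusp2 rose and Dusp4, Dusp1 and, by a small amount, Egr2 fell, while Egr1, Nr4a1 and Dusp5 did not pass the test. The largest differences were in phosphatases: Dusp10 was 5.93-fold and Dusp6 4.47-fold higher, and Dusp4 was 6.01-fold lower. The comparison asks which transcripts differ between Irf4-/- and Irf4+/+ samples after this stimulation. A gene was called at a Benjamini-Hochberg adjusted p under 0.05 in limma over 12251 genes, each represented by its brightest probe set. All 10 genes were bright enough to be tested. Of them 4 were called higher, against 23.4% of all tested genes, and 3 were called lower, against 23.9% of all tested genes. The 7 called stand against 47.2% of all genes, and the median log2 fold change of the 10 was -0.05, beside 0.00428 over all genes. Changes of at least 2-fold were called for 5 of the 10 (8.04% of all genes) and changes of at least 4-fold for 3 (1.77% of all genes), of which 2 were rises (1.45% of all genes). The groups did not overlap for 6 of the 10 genes, against 35.7% of all genes. At the level of probe sets 8 of the 13 were called, against 42.5% of 22533 tested probe sets.

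**Figure D1:**
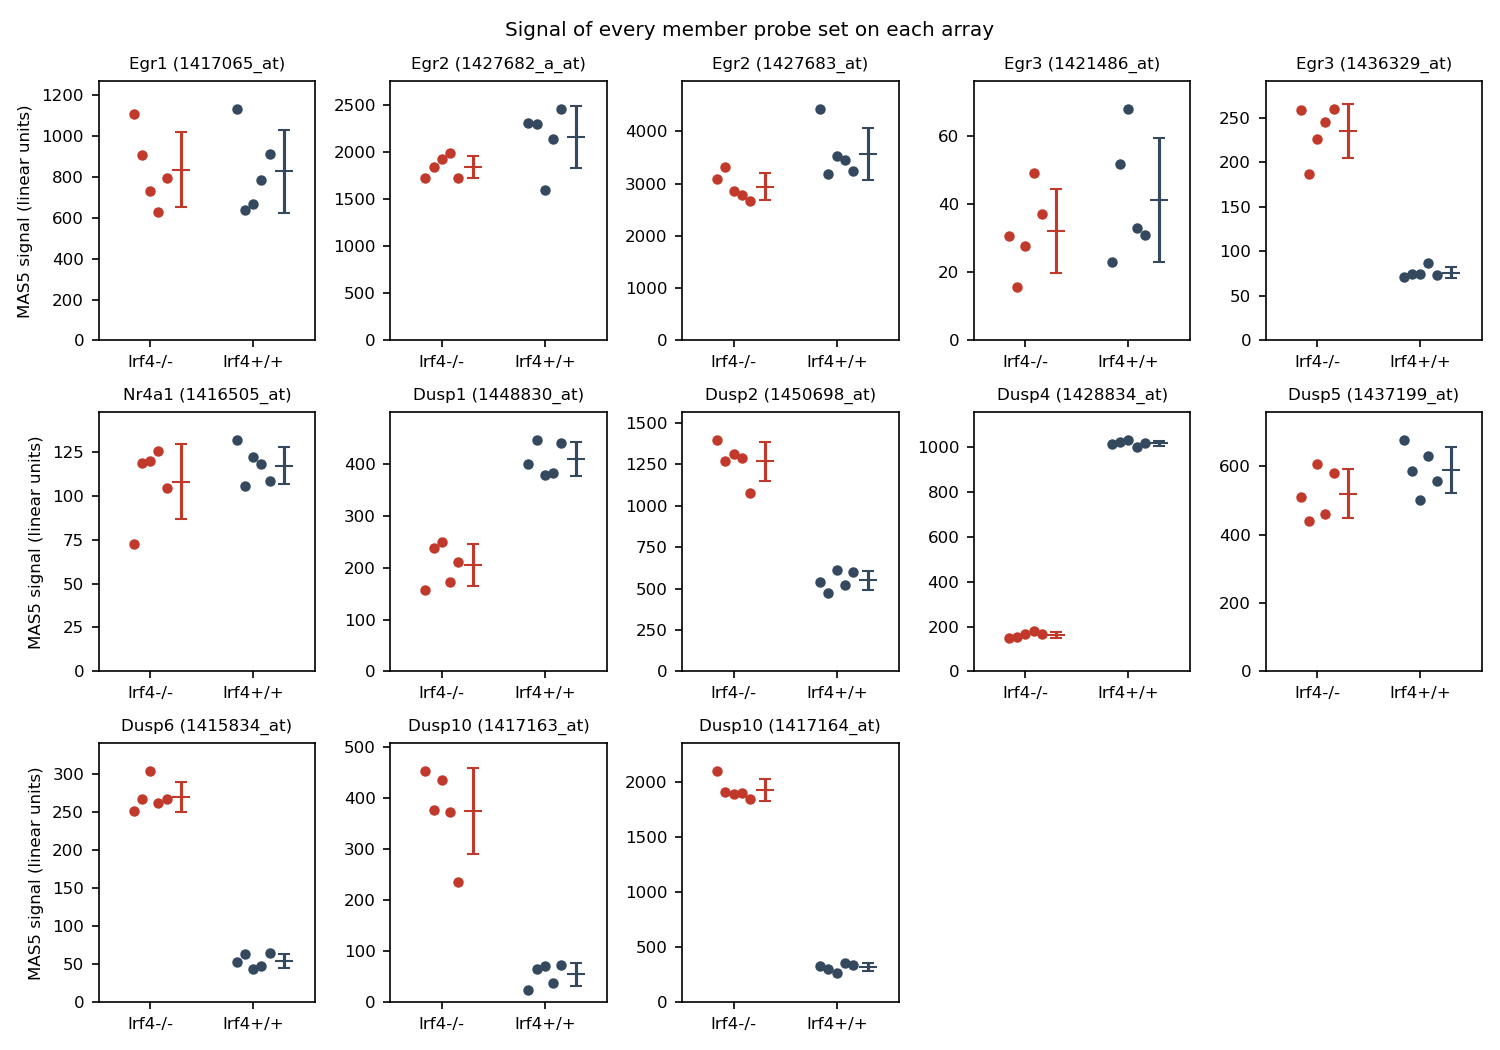
MAS5 signal (linear units, vertical axes from 0) of each of the 13 probe sets on each array, with Irf4-/- samples left and Irf4+/+ samples right in each panel. Points are arrays, and the bar beside them is the mean ± SD (n = 5). The groups lie apart for Dusp1, Dusp2, Dusp4, Dusp6, both Dusp10 probe sets and the brighter Egr3 probe set, and they overlap in the other panels.

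The promoters of phosphatases that moved in different directions, and of one that was not called, are shown to set the data beside the regulatory sequence. RefSeq promoter entries (GRCm38.p6) were at hand for 7 of the 10 genes, and the entries of Egr1, Egr3 and Dusp4 were not used here. Each line gives the 250 bases before the annotated start, 5′ to 3′ on the gene's own strand, with matches to searched motifs in capitals. The windows are chr1:184034131-184034380 on the + strand for Dusp10, chr10:99262981-99263230 on the + strand for Dusp6, chr2:127335909-127336158 on the + strand for Dusp2, chr17:26508473-26508722 on the - strand for Dusp1 and chr19:53528895-53529144 on the + strand for Dusp5.
Dusp10: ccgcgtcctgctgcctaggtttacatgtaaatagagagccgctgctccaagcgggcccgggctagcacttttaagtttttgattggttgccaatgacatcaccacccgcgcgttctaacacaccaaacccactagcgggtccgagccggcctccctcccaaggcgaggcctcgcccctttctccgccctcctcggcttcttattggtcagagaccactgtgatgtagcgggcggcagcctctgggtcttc
Dusp6: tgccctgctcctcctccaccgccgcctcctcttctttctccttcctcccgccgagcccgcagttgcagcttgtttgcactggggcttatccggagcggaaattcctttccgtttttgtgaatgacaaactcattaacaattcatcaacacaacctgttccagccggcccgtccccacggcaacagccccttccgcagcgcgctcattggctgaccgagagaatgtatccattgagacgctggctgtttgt
Dusp2: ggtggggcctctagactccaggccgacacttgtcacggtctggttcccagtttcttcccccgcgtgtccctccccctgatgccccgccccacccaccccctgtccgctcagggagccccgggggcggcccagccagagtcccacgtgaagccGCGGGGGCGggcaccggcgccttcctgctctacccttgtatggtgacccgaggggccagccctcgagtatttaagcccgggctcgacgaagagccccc
Dusp1: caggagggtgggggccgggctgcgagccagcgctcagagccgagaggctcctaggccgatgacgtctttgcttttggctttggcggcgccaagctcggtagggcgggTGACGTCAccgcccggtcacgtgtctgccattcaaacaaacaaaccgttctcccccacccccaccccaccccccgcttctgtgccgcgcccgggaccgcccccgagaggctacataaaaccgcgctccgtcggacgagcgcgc
Dusp5: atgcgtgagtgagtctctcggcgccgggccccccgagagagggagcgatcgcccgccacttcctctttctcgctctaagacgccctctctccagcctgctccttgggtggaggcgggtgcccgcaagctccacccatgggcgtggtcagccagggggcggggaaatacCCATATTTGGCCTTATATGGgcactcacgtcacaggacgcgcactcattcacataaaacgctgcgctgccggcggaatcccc
The searched motifs, on both strands, were the composite site of ETS factors with IRF4 or IRF8 (GGAA and GAAA with any 2 bases between them), the interferon response element (GAAA repeated after any 2 bases), the AP-1 site (TGANTCA), the cyclic AMP response element (TGACGTCA), the EGR site (GCGNGGGCG), the ETS site (CCGGAAG), the NR4A site (AAAGGTCA) and the CArG box bound by serum response factor. The first pair can overlap each other where a stretch matches both.

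The capitals mark 1 cyclic AMP response element in Dusp1, a motif found in 1.55% of 32851 promoter windows of the same length, and 1 EGR site in Dusp2, a motif found in 4.70% of them. In Dusp5 they mark 2 CArG boxes that abut, a motif found in 1.47% of all windows. The Dusp10 and Dusp6 windows held no match to any of the 8 motifs. Among the other members, Nr4a1 held 1 EGR site, and 4 of the 5 Egr2 windows, which belong to different annotated starts and partly overlap, held a CArG box. The composite ETS and IRF site, present in 2.30% of all windows, and the interferon response element, present in 2.98%, matched none of the 11 member windows. GC content was 59.6% in the Dusp10 window, 56.4% in Dusp6, 70.4% in Dusp2, 68.4% in Dusp1 and 64.0% in Dusp5, beside a median of 52.4% over all windows. A match describes letters and does not show binding.

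Dusp10, whose product dephosphorylates p38 and JNK, had the largest rise of the 10 genes. Its brighter probe set (1417164_at) read 2098.1, 1913.2, 1887.3, 1901.9 and 1847.6 in Irf4-/- samples, against 330.4, 302.0, 270.4, 355.1 and 343.3 in Irf4+/+ samples. The lowest Irf4-/- sample was far above the highest Irf4+/+ sample, and replicate 1 was the highest of its genotype. On the log2 scale the difference was 2.57 (SE 0.0742, limma adjusted p = 1.15e-13), or 5.93-fold with a 95% interval of 5.31 to 6.61, and 86 of 12251 genes rose more. The dimmer Dusp10 probe set (1417163_at) read 453.0, 376.3, 435.2, 373.7 and 236.4 in Irf4-/- samples, against 23.6, 66.2, 71.4, 38.9 and 73.9 in Irf4+/+ samples. It also showed no overlap (log2 fold change 2.67, adjusted p = 1.39e-07 in limma over probe sets, SE 0.240). In Irf4+/+ samples its SD on the log2 scale was 0.601, beside 0.155 for the brighter probe set.

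Dusp6, the cytoplasmic ERK phosphatase and a standard readout of ERK output, rose as well. Its signal (probe set 1415834_at) was 251.3, 267.7, 303.6, 262.5 and 266.6 in Irf4-/- samples, against 53.7, 63.9, 43.9, 47.9 and 64.5 in Irf4+/+ samples. All Irf4-/- samples lay within a narrow band above all Irf4+/+ samples. On the log2 scale the difference was 2.16 (SE 0.121, limma adjusted p = 3.54e-10), or 4.47-fold with a 95% interval of 3.74 to 5.34.

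Dusp2, a nuclear phosphatase of activated lymphocytes that acts on ERK and p38 (probe set 1450698_at), read 1394.1, 1269.4, 1314.0, 1286.4 and 1076.2 in Irf4-/- samples, against 540.2, 472.8, 612.6, 522.0 and 600.9 in Irf4+/+ samples. The groups did not overlap, and the difference was well above the spread within either genotype. It amounted to 2.29-fold (log2 fold change 1.20, SE 0.0824, 95% interval of the fold 2.03 to 2.59, adjusted p = 4.74e-09 in limma).

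Dusp4, a nuclear phosphatase of ERK and JNK that is induced by ERK signalling, fell most. Its signal (probe set 1428834_at) was 149.1, 152.8, 167.5, 178.9 and 165.5 in Irf4-/- samples, against 1013.4, 1019.4, 1029.4, 999.5 and 1015.2 in Irf4+/+ samples. Every Irf4-/- sample was far below every Irf4+/+ sample, and 21 of 12251 genes fell more. On the log2 scale the difference was -2.59 (SE 0.0677, limma adjusted p = 4.56e-14), or 6.01-fold with a 95% interval of 5.44 to 6.64. The Irf4+/+ arrays were close to each other on this gene, with an SD of 0.0153 on the log2 scale beside a median of 0.167 over all tested genes, and the SD in Irf4-/- samples was 0.101.

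Dusp1, the nuclear phosphatase of p38, JNK and ERK that growth factors and stress induce, also fell. Its probe set (1448830_at) read 157.8, 237.3, 250, 172.3 and 210.3 in Irf4-/- samples, against 400.3, 445.8, 378.1, 382.4 and 440.8 in Irf4+/+ samples. The highest Irf4-/- sample was below the lowest Irf4+/+ sample. The fold was 1.98 with a 95% interval of 1.67 to 2.35 (log2 fold change -0.99, SE 0.116, adjusted p = 2.50e-06 in limma), and the spread in Irf4-/- samples, 0.277 on the log2 scale, exceeded the 0.110 in Irf4+/+ samples.

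Dusp5, a nuclear phosphatase specific to ERK (probe set 1437199_at), read 511.5, 441.4, 605.6, 460.9 and 579.4 in Irf4-/- samples, against 676.3, 586.3, 501.5, 630.5 and 555.8 in Irf4+/+ samples. The groups overlapped, and 2 Irf4-/- samples lay below all Irf4+/+ samples. On the log2 scale the difference was -0.18 (SE 0.0983, limma adjusted p = 0.142), with a 95% interval of -0.39 to 0.02, so a fall of up to 1.31-fold is within the interval. Among the 4 nuclear phosphatases 1 rose, 2 fell and 1 was not called, beside 23.4% of all genes called higher and 23.9% called lower.

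**Figure D2:**
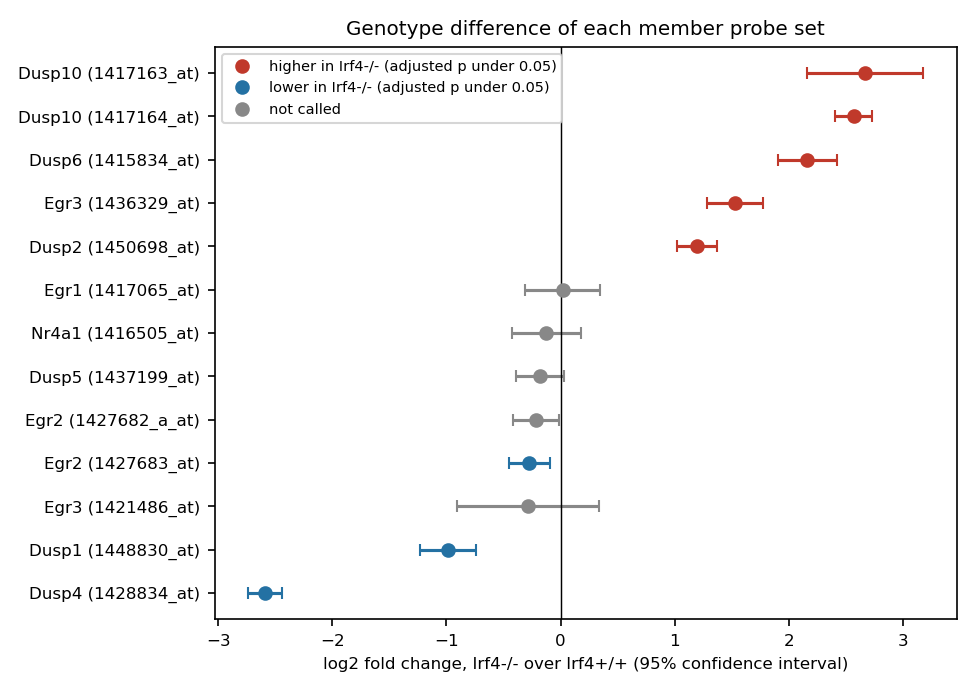
Log2 fold change of each of the 13 probe sets (horizontal axis, Irf4-/- over Irf4+/+), with its 95% confidence interval from limma as a bar. Both Dusp10 probe sets lie at 2.57 and 2.67 and Dusp4 at -2.59, while the Egr3 probe sets lie on different sides of 0, at 1.53 and -0.28.

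Of the EGR factors, Egr3 was the one that rose. Its brighter probe set (1436329_at) read 259.0, 186.5, 226.9, 245.4 and 259.8 in Irf4-/- samples, against 70.9, 74.6, 74.3, 86.8 and 73.8 in Irf4+/+ samples. Each Irf4-/- sample exceeded each Irf4+/+ sample, and the rise was 2.88-fold (log2 fold change 1.53, SE 0.114, 95% interval of the fold 2.44 to 3.41, adjusted p = 1.23e-08 in limma). The other Egr3 probe set (1421486_at) was dim, at 30.7, 15.7, 27.9, 49.2 and 37.1 in Irf4-/- samples, against 23.0, 51.8, 68.0, 33 and 31.1 in Irf4+/+ samples. There the groups overlapped (log2 fold change -0.28, SE 0.294, adjusted p = 0.480 in limma over probe sets). With the mean of both probe sets in place of the brighter one, the Egr3 log2 fold change was 0.62 (adjusted p = 0.00991). The size and the direction of the Egr3 rise therefore rest on 1 probe set.

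Egr2, which with Egr3 restrains lymphocyte activation in mice, was slightly lower. Its brighter probe set (1427683_at) read 3082.1, 3308.6, 2856.5, 2776.7 and 2659.9 in Irf4-/- samples, against 4422.4, 3185.5, 3532.9, 3445.4 and 3236.5 in Irf4+/+ samples. All but 1 of the Irf4-/- samples lay below all Irf4+/+ samples, and the fall was 1.21-fold (log2 fold change -0.27, SE 0.0837, adjusted p = 0.0128 in limma). In the fit over probe sets without a mean-variance trend it was not called (adjusted p = 0.0558). The other Egr2 probe set (1427682_a_at) read 1726.8, 1842.2, 1930.0, 1989.5 and 1722.0 in Irf4-/- samples, against 2310.4, 2297.0, 1604.2, 2138.6 and 2457.9 in Irf4+/+ samples. It had the same direction without being called (log2 fold change -0.22, SE 0.0939, adjusted p = 0.0750 in limma over probe sets), and Irf4+/+ replicate 3 was the lowest of all 10 samples. Without that sample the adjusted p of this probe set was 0.000851 and its log2 fold change -0.32.

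Egr1, the factor most often used to mark early ERK signalling, did not separate the genotypes. Its probe set (1417065_at) read 1108.9, 910.5, 730.6, 629.7 and 795.3 in Irf4-/- samples, against 1132.3, 637.6, 667.0, 785.8 and 915.1 in Irf4+/+ samples. Both groups spanned nearly the same range, and the spread within a genotype, 0.308 in Irf4-/- and 0.337 in Irf4+/+ samples on the log2 scale, was wider than the median gene's 0.157 in Irf4-/- and 0.167 in Irf4+/+ samples. On the log2 scale the difference was 0.02 (SE 0.154, limma adjusted p = 0.936). Its 95% interval of -0.31 to 0.35, or 0.807-fold to 1.27-fold, leaves room for a small change in either direction.

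Nr4a1 was not called either. Its probe set (1416505_at) read 72.7, 118.5, 119.5, 125.1 and 104.3 in Irf4-/- samples, against 131.5, 105.4, 121.7, 117.8 and 108.1 in Irf4+/+ samples. The groups overlapped, 2 Irf4-/- samples lay below all Irf4+/+ samples, and replicate 1 was the lowest of all 10. The log2 fold change was -0.12 (SE 0.142, 95% interval -0.43 to 0.18, adjusted p = 0.513 in limma). Without Irf4-/- replicate 1 it was 0.00070.

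**Figure D3:**
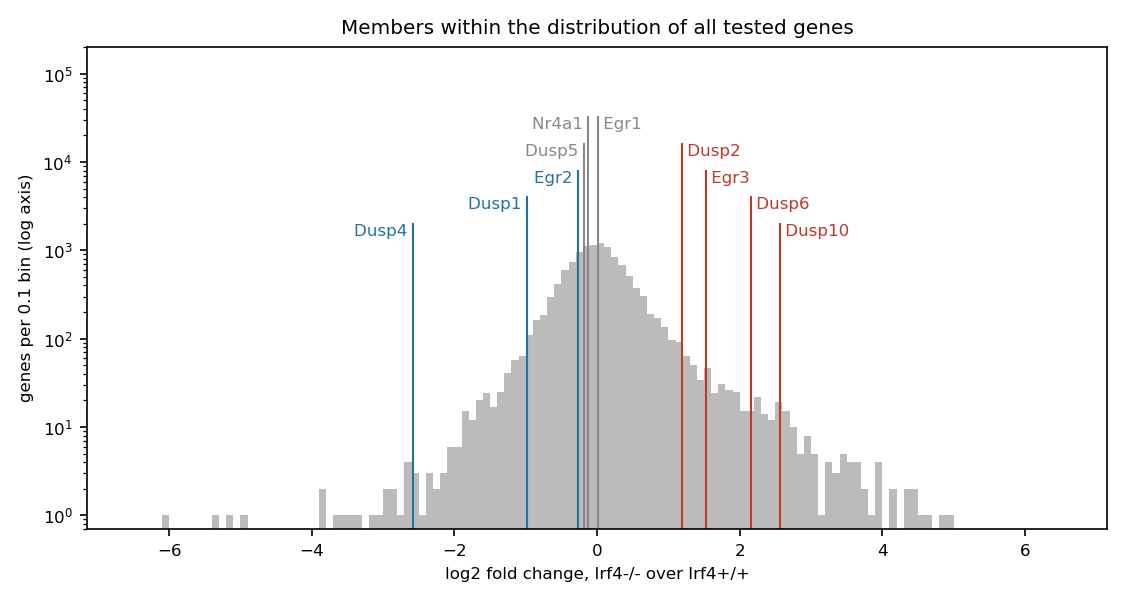
Histogram of the log2 fold change of all 12251 tested genes (Irf4-/- over Irf4+/+, horizontal axis, and genes per bin on a log vertical axis), with a line for each of the 10 genes, red for called higher, blue for called lower and grey for not called. Dusp10 and Dusp6 stand in the upper tail, with 86 and 154 genes more positive, and Dusp4 in the lower tail, with 21 genes more negative.

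Close relatives of these genes were examined from lists. Nab1 and Nab2 encode corepressors that bind EGR factors, and Nab2 is itself an EGR target. Nab2 rose 3.14-fold, at 222.7 ± 23.5 in Irf4-/- samples and 66.8 ± 17.3 in Irf4+/+ samples (mean ± SD of 5 samples each, adjusted p = 1.04e-07 in limma). Nab1 fell 1.40-fold, at 2173.6 ± 161 in Irf4-/- and 3047 ± 184 in Irf4+/+ samples (adjusted p = 5.19e-06). Egr4, Nr4a2 and Nr4a3 had low signals and were not called, with log2 fold changes of 0.45, -0.09 and -0.09. In this list of 5 genes 1 rose (20%, beside 23.4% of all genes), 1 fell (20%, beside 23.9%) and 3 were not called.

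Other dual-specificity phosphatases were called at about the rate of all genes. Of 17 listed genes 13 were bright enough to test, and 2 rose (15.4%, beside 23.4% of all genes), 5 fell (38.5%, beside 23.9% of all genes) and 6 were not called, with a median log2 fold change of -0.20 beside 0.00428 over all genes. Dusp22, an atypical family member that acts in JNK and lymphocyte kinase signalling, rose 4.59-fold, at 838.8 ± 54.1 in Irf4-/- and 177.8 ± 28.5 in Irf4+/+ samples (mean ± SD of 5 samples each). Dusp14, a small atypical phosphatase, fell 2.89-fold, at 80.2 ± 15.5 in Irf4-/- and 243.8 ± 23.5 in Irf4+/+ samples. Dusp16, which acts on JNK and p38, fell 1.93-fold, at 360.4 ± 40.5 in Irf4-/- and 702.8 ± 88.5 in Irf4+/+ samples. Dusp3 fell 1.53-fold and Dusp12 1.26-fold. The adjusted p of these 5 genes in limma was between 2.01e-11 (Dusp22) and 0.000876 (Dusp12). Dusp11 fell 1.16-fold (adjusted p = 0.0112) and Dusp19 rose 1.15-fold (adjusted p = 0.0310), but a further probe set of each had the opposite sign and was not called. With probe sets averaged none of these 3 was called: the log2 fold change of Dusp12 was then -0.29 (adjusted p = 0.270), that of Dusp11 -0.031 (adjusted p = 0.624) and that of Dusp19 0.20 (adjusted p = 0.229). Without probe sets shared between several transcripts Dusp12 was at -0.18 (adjusted p = 0.786). Without Irf4-/- replicate 2, 3 or 5, or without Irf4+/+ replicate 2, 3 or 5, 1 phosphatase of this list rose. With any 1 array left out, 2670 to 2835 of all 12251 genes were called higher.

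Other immediate early genes included risen and fallen members. Of 24 listed genes 22 were tested, and 10 rose, 7 fell and 5 were not called (median log2 fold change 0.16). These are 45.5% higher and 31.8% lower, beside 23.4% and 23.9% of all genes. The antiproliferative gene Btg1 rose 1.79-fold, at 8518 ± 188 in Irf4-/- and 4755 ± 92.9 in Irf4+/+ samples, and Jun, a subunit of AP-1, rose 2.26-fold, at 1376 ± 67.4 in Irf4-/- and 605.8 ± 49.8 in Irf4+/+ samples (mean ± SD of 5 samples each). Myc, the growth regulator, fell 2.19-fold, and Zfp36l2, which destabilises mRNA, fell 1.81-fold. The adjusted p of these 4 genes in limma was at most 4.31e-07.

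Factors that bind early response promoters were examined as a further list. Of 8 tested genes of serum response factor, its partners and the CREB family, 3 rose, 3 fell and 2 were not called (median log2 fold change -0.02), which is 37.5% in each direction beside 23.4% higher and 23.9% lower over all genes. Crem, a modulator of cyclic AMP response elements, fell 2.31-fold, at 372.1 ± 29.4 in Irf4-/- and 866.7 ± 26.7 in Irf4+/+ samples, the coactivator Mrtfb rose 1.98-fold, and the ternary complex factor Elk3 rose 1.82-fold (adjusted p at most 1.87e-07 in limma). Elk4, a further ternary complex factor, fell 1.23-fold on its brightest probe set (adjusted p = 0.000826). With its probe sets averaged it was not called (adjusted p = 0.858), and its sign turned once probe sets that match several transcripts were removed (log2 fold change 0.12, adjusted p = 0.563). Both the mean of probe sets and the removal of shared ones left 1 fallen gene in this list. Over all genes these settings called 2414 of 12251 and 2446 of 10693 lower.

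In the cascades upstream of these genes more tested members rose than fell. Of 22 tested Ras and ERK cascade genes 13 rose, 2 fell and 7 were not called (median log2 fold change 0.32). The 59.1% called higher stand beside 23.4% of all genes, and the 9.09% called lower beside 23.9%. Without Irf4-/- replicate 2, 3, 4 or 5, or without Irf4+/+ replicate 3 or 5, 1 gene of this cascade fell. With any 1 array left out, 2737 to 2906 of all 12251 genes were called lower. Rasa2, which switches Ras off, rose 1.94-fold, and Rasgrp1 and Rasgrp3, which switch Ras on downstream of diacylglycerol, rose 1.99-fold and 1.41-fold. The adaptor Grb2 rose 1.32-fold, and the adjusted p of these 4 genes in limma was at most 2.27e-06. Of 19 tested p38 and JNK cascade genes 8 rose, 4 fell and 7 were not called (median 0.15). The 42.1% higher stand beside 23.4% of all genes, and the 21.1% lower beside 23.9%. Map2k6, a kinase that activates p38, rose 3.07-fold, at 239.7 ± 16.3 in Irf4-/- and 75.9 ± 26.9 in Irf4+/+ samples, and Map4k1, a kinase of lymphocytes upstream of JNK, rose 1.99-fold (adjusted p = 9.17e-07 and 2.39e-08). Mapk8, which encodes a JNK, was 1.37-fold lower on its brightest probe set (adjusted p = 0.000265), but other probe sets disagreed, so it has no settled direction. Map3k7 was 1.33-fold lower (adjusted p = 0.00086) and was not called without shared probe sets (adjusted p = 0.467). With the arrays scaled to a common median, 5 p38 and JNK genes rose, while 2261 rather than 2861 of all 12251 genes were called higher. With the mean of probe sets 1 fell, while 2414 rather than 2927 of all genes were called lower.

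Feedback inhibitors and ERK-responsive genes were called at rates near those of all genes. Of 9 tested genes 2 rose (22.2%, beside 23.4% of all genes), 3 fell (33.3%, beside 23.9%) and 4 were not called (median -0.00289). Spry2, an inhibitor of receptor signalling to ERK, fell 2.76-fold, at 167.5 ± 18.7 in Irf4-/- and 475.1 ± 39.9 in Irf4+/+ samples (adjusted p = 1.49e-09 in limma), and the ERK-responsive factor Etv5 fell 1.69-fold (adjusted p = 0.00102). Phlda1 rose 1.58-fold (adjusted p = 0.000427), and Spred2, a further inhibitor of the pathway, rose 1.33-fold (adjusted p = 0.00151) but not with its probe sets averaged (adjusted p = 0.147). Of 16 tested genes of calcium, calcineurin and NFAT signalling 7 rose (43.8%, beside 23.4% of all genes), 1 fell (6.25%, beside 23.9%) and 8 were not called (median 0.17). Nfatc1, a factor known to induce Egr2 and Egr3 in lymphocytes, rose 1.73-fold, at 943.0 ± 35.6 in Irf4-/- and 542.3 ± 35.8 in Irf4+/+ samples, the calcium channel Orai1 1.87-fold, the calcium release receptor Itpr2 1.81-fold and the calcium sensor Stim1 1.44-fold (adjusted p at most 0.00695 in limma). With the arrays scaled to a common median, 4 genes of this list rose, while 2261 rather than 2861 of all 12251 genes were called higher.

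**Figure D4:**
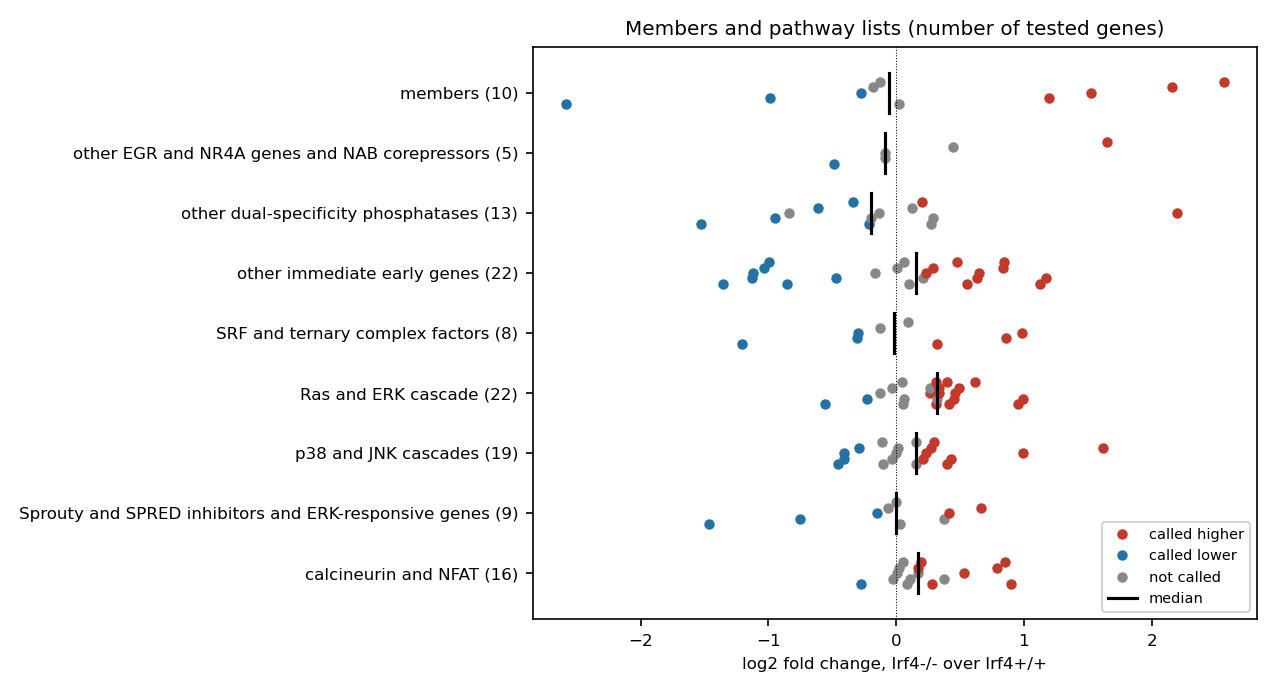
Log2 fold change (Irf4-/- over Irf4+/+) of the 10 genes and of the tested genes of each pathway list, 1 point per gene, coloured by call, with a black bar at the median of each list. The 10 genes reach farther in both directions, from -2.59 to 2.57, than most genes of the lists, and the median of the Ras and ERK cascade is at 0.32.

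Genes with the pattern most like those at the extremes were found by the root mean square difference of log2 values over the 10 arrays, each gene centred on its own mean. Nearest to Dusp10 were Lyst, a regulator of lysosome size, at 0.118, Aplnr, the apelin receptor, at 0.131, and Ifi47, an interferon-inducible GTPase, at 0.134. Lyst read 3348 ± 70.9 in Irf4-/- and 578.6 ± 17.1 in Irf4+/+ samples, and Aplnr was barely above 0 signal units in Irf4+/+ samples (1.80 ± 0.880), so its fold depends on the constant added before the log. Nearest to Dusp4 were Rpgrip1 at 0.163, the chromatin organiser Satb1 at 0.166 and the actin-binding protein Nebl at 0.178. Satb1 read 948.1 ± 62.0 in Irf4-/- and 4728 ± 311 in Irf4+/+ samples. Because the arrays form 2 genotypes, genes with a fold of similar size score as alike.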

How the data were processed

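The authors deposited 1 linear intensity (the MAS5 signal, a tool that the submitters' processing notes name) for each probe set on each array. No version or scaling target of MAS5 is stated in those notes. The mean after removing 2% of values at each end was 250 on every array, so arrays were used as scaled. Of 45101 probe sets 64 were controls, 34945 had 1 gene symbol, 932 had several and 9160 are unnamed here. Symbols were updated through gene IDs in a RefSeq table of GRCm38.p6, which held 34741 of those IDs.

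Values were taken as log2(signal + 7.9), the 20th percentile of all values, so folds of dim genes are understated. Probe sets with a mean under 25.1, the 40th percentile, were left out, and the brightest probe set stood for a gene. limma 3.58.1 (lmFit, eBayes with a trend) in R 4.3.3 had genotype as its single term; a second fit used all probe sets. All adjusted p-values for genes are Benjamini-Hochberg values over all genes or probe sets of these fits. For array measures the exact permutation test was two-sided. An array has no read depth, so the 5 arrays of a genotype set the precision.

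The 10 genes, the lists and the tests were chosen with earlier results of these data known. Named are the 10 genes with every probe set, Irf4, the 4 genes of each pathway list with the smallest p, the called relatives, the 3 genes nearest in pattern to the largest rise and fall, and the 2 brightest markers of other cells. Lists of dendritic cell and of erythroid and platelet markers were also examined: 2 of 4 tested dendritic genes were higher and 2 lower, and neither of the 2 tested erythroid and platelet genes was called. Of 11 measured T cell markers 4 were tested, and 0 rose and 1 fell. Over all tested genes 23.4% were called higher and 23.9% lower. Some further markers are named because they lay below the filter or passed it only through Irf4-/- samples. Fosl1 is named because it passed the filter only through Irf4+/+ samples. The procedure was tested on simulated data. Alternatives changed the pseudocount, the filter, the scaling, the variance model, the weight of arrays or the choice of probe sets, blocked on replicate number, or left out 1 array at a time. Protein sequences were not used here. No arrays held identical values.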

Additional observations from a re-analysis of the deposited data

Results flagged for a closer look

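Of 26 sets of 5 values (13 probe sets in 2 genotypes), 2 held a value that stood apart from the other 4, and chance gives about 1 in 20. For the brighter Egr3 probe set, Irf4+/+ replicate 4 was the highest of its genotype at 86.8, a gap of 0.750 of the group's range (critical value 0.71). For the brighter Dusp10 probe set, Irf4-/- replicate 1 was the highest at 2098.1, a gap of 0.726 of the range. Both values lie far on their own genotype's side: without that Dusp10 array or any other, the Dusp10 log2 fold change was 2.51 to 2.60, and that of Egr3 was 1.49 to 1.61.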

How the results depend on the processing

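The counts of 4 genes called higher and 3 called lower held under all 12 settings that kept every array and with each array left out, and so did the direction of the 7 called genes. The values showed no pairing of arrays by replicate number. Deviations of same-numbered arrays from their group means correlated at -0.0337 to 0.0341, and 0 numbers were best matched to each other. Such correlations cannot show whether same-numbered samples were prepared together. With the replicate number as a block the counts were also 4 and 3, with 2831 genes higher and 2885 lower over the whole array, beside 2861 and 2927. The block changed no call of the 10 genes. Among the named relatives it ended that of Dusp19 (adjusted p = 0.0542 in limma). The Dusp19 call was also lost with median scaling (adjusted p = 0.26), without a trend (0.0505) and with the mean of probe sets (0.229). It was lost as well without Irf4-/- replicate 1, 2, 3 or 5, or without Irf4+/+ replicate 2, 3 or 5 (adjusted p 0.051 to 0.0755). Over all alternatives of the gene fit the log2 fold change of Dusp10 was 2.48 to 2.62, of Dusp6 1.81 to 2.30, of Dusp4 -2.66 to -2.43 and of Egr3 0.62 to 1.61. The adjusted p of Egr2 in these limma fits was 0.00695 to 0.0473. In the limma fit over probe sets without a trend its brighter probe set was not called (adjusted p = 0.0558). Signs turned only for genes that were not called or whose probe sets disagree; the cause was not tested. Egr1 was -0.054 with median scaling and -0.090 to 0.14 with single arrays left out, and Nr4a1 was -0.18 to 0.00070. Nr4a3 was 0.024 with array weights, 0.013 with the mean of its probe sets and -0.23 to 0.053 with single arrays left out. Elk4 was 0.12 and Dusp19 -0.13 without shared probe sets, and Mapk8 was 0.19 with the mean of its probe sets. Among other dual-specificity phosphatases 1 rather than 2 rose with median scaling, without a trend, with the block, without shared probe sets, and without Irf4-/- replicate 2, 3 or 5 or Irf4+/+ replicate 2, 3 or 5; 3 rather than 5 fell with the mean of probe sets or without shared ones. In the Ras and ERK cascade 1 rather than 2 fell under 9 settings, 6 of which left out 1 array. Median scaling moved the median of all genes to -0.064, with 2261 genes called higher and 3284 lower. With the mean of probe sets 2630 genes were higher and 2414 lower. Without shared probe sets 2441 of 10693 genes were higher and 2446 lower. Without a trend the counts were 2780 and 2814, and without the filter 2765 and 2844 of 18193 genes. Leaving out 1 array gave 2670 to 2835 higher and 2737 to 2906 lower.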

Other observations

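Probe sets of Mapk8 disagreed. The brightest read 301.3 in Irf4-/- and 418.3 in Irf4+/+ samples (means, n = 5; log2 fold change -0.46, adjusted p = 0.00036 in limma over probe sets), while dimmer ones read 87.6 in Irf4-/- and 32.1 in Irf4+/+ samples (1.31, adjusted p = 9.61e-05) and 95.8 in Irf4-/- and 69.7 in Irf4+/+ samples (0.42, adjusted p = 0.0162). Another 2 were not called. Which transcripts each probe set reads was not tested.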
